A study of Mus musculus with 244 samples.

Results

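Somatic cells of primary follicles were compared with somatic cells of primordial follicles that had been processed on the same library plate, plate 5. The 40 cells were chosen by their title (stage and cell type) and by the plate number in the deposited cell metadata, with no use of expression, and they are 19 primary and 21 primordial cells, 16.4% of all cells in the series. The rest of the series holds 37 primary and 19 primordial somatic cells of other plates, 42 secondary somatic cells, 47 somatic cells of follicles in transition to primary, and 59 oocytes. Ovaries came from CD-1 mice, an outbred stock, at postnatal day 6, and both groups were untreated. Follicles were freed with liberase and DNase I, staged under the microscope, and taken apart with Accutase, after which single cells were picked into wells and lysed. By the protocol notes primary follicles were held in Accutase for 10 min and drawn through a 30 µm pipette, and primordial follicles for 5 min and a 20 µm pipette. A figure legend of the study gives the same enzyme time for both stages, and which holds is not known here. On the plate the primary cells lie in well rows E and F and the primordial cells in rows G and H, so stage, handling and well row cannot be told apart here. No animal is named for a cell. Each stage was therefore treated as 1 sample, and no test was run and no p-value is given.

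In a primordial follicle the resting oocyte is enclosed by flat pre-granulosa cells, and in a primary follicle by a single layer of cuboidal granulosa cells. Growing granulosa cells make anti-Müllerian hormone (*Amh*) and the inhibin alpha subunit (*Inha*), and FOXL2 is a transcription factor that holds the granulosa identity. The oocyte and its granulosa cells exchange signals of the TGF-beta family and are joined by gap junctions, and steroid synthesis by granulosa cells becomes important as follicles grow.

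Each cell is a SMART-Seq2 library, a full-length copy of its polyadenylated RNA without molecular identifiers. The total count per cell had a lowest, median and highest value of 14249, 37971 and 116570 in primary cells and 15909, 57289 and 168631 in primordial cells, over 16710 genes with values on this plate. The counts of all cells in a stage were added up (779431 in primary and 1282579 in primordial cells, 14.96 and 13.1% of them from the deepest cell, primary cell 50 and primordial cell 40) and scaled to counts per 1000000 counts (CPM). Cells are named by the stage and number in their titles. A gene was compared where the mean of both stages was at least 10 CPM and at least 8 of the 40 cells had reads, and it is called higher or lower in primary cells where the log2 ratio of primary over primordial CPM is at least 1 in size. The 95% intervals given are exact and leave out PCR copies and differences between animals, so they describe counting error alone. A stage without counts was set at a floor of 3 counts over the stage, and its ratio is then a bound set by this floor. The same holds for folds given as at least a value. The upper end of the 95% interval for no count lies somewhat above the floor and allows smaller ratios.

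Among the cells compared, a single predicted gene set libraries of the primordial group apart. *Gm10800* took 59.9 to 72.6% of the counts in 3 primordial cells (29, 39 and 40), 0.780 to 10.7% in the other 18 primordial cells and 0.0110 to 3.15% in the primary cells. Its pooled level was 5654 CPM (95% interval 5488 to 5824) in primary cells and 243169 CPM in primordial cells, a log2 ratio of -5.43, and -3.05 without the 3 cells. The medians per cell were 3588 CPM in primary cells and 45137 CPM in primordial cells, and the ranges of the groups overlapped. Since it makes up 0.565% of the primary sum and 24.3% of the primordial sum, leaving it out of the totals lowers every log2 ratio by 0.39. The results below are therefore given with and without *Gm10800* in the totals, and without the 3 cells, which are called Gm10800-rich.

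*Gm10800* lies at chr2:98666547-98667301 on the minus strand of GRCm38, and its 660 exon bases are all annotated as coding sequence. The first 300 bases of the transcript are shown to make the repeats visible that fill it, with the most frequent 12-base word, TTTTCAGTTTTC, in capitals.
Gm10800: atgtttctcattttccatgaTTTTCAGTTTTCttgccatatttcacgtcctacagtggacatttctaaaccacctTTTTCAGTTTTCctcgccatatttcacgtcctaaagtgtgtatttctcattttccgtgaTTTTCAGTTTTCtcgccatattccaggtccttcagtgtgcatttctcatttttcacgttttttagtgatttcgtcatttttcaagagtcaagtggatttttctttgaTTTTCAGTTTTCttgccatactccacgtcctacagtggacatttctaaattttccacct
This word occurs 7 times in the transcript, 4 of them in the stretch shown, and 71.3% of all its 12-base words occur more than once. Other predicted genes share its words, from 42.5% in *Gm17535* to 60.5% in *Gm10801*, so counts can be split among them. All 8 repeat-rich predicted genes that were compared were called lower in primary cells, with a median log2 ratio of -4.89, and of -2.88 without the Gm10800-rich cells. A single cell moved 3 of them by over 1.5-fold, *Gm17535* with -4.18 and, without primordial cell 40, -3.59, *Gm21738* with -5.03 and, without primordial cell 40, -4.37, and *Gm10721* with -4.99 and, without primary cell 51, -5.74. *Gm10801* was at 374.5 CPM in primary and 18351 CPM in primordial cells.

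The cells were also checked against markers of other cell types. Of 12 stroma markers 10 have values on the plate. More than 0.5% of the counts fell on them in 3 primary cells (numbers 38, 45 and 53) and 3 primordial cells (28, 36 and 37), with 0.614 to 4.94% in the primary and 2.56 to 4.14% in the primordial ones. These 3 primary cells are the ones with no *Inha* and no *Amh* read, and primordial cell 28 is the only primordial cell without *Inha*. Granulosa markers took 0.0983, 2.55 and 4.10% of the counts (lowest, median and highest) in primary cells and 0.00617, 0.575 and 2.15% in primordial cells. Markers of endothelial cells reached at most 0.0421% in primary and 0.178% in primordial cells, and markers of blood cells at most 0.0326% and 0.0780% in the same order. Smooth muscle and pericyte markers reached 0.519% in a primary and 0.249% in a primordial cell, with medians of 0, and markers of surface epithelium and pre-granulosa cells had medians of 0.0800% in primary and 0.1379% in primordial cells. Over all 40 cells 90.2% of the stroma marker counts lay in these 6 cells, which are called stroma-rich, and some of the results are given without them as well. Reads on rRNA had a median of 29.7% in primary and 23.1% in primordial cells, and mitochondrial reads of 1.99% and 1.96%. The Gm10800-rich cells stood apart here too. Intergenic reads made up 24.01, 30.5 and 34.1% in primordial cells 29, 39 and 40, against at most 16.2% in the other primordial cells and 12.3% in primary cells. In the same order of cells rRNA took 15.4, 1.91 and 1.83% of the reads and mitochondrial reads 0.844, 0.135 and 0.175%. The part of RNA quality in the *Gm10800* result was not tested. No pair of cells had identical counts.

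**Figure D1:**
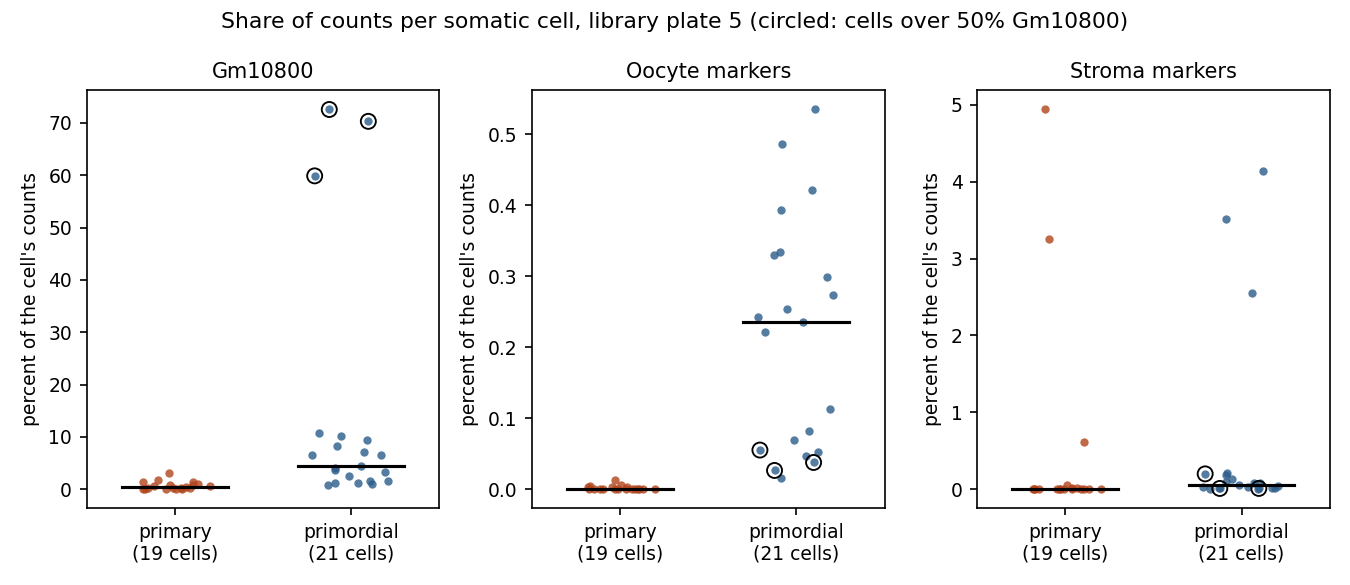
Share of the counts of each cell, in percent, taken by Gm10800, by oocyte markers and by stroma markers in primary (19 points, left) and primordial (21 points, right) somatic cells. Only markers with values on the plate enter, 11 of 32 for the oocyte and 10 of 12 for stroma. Bars are medians and circles mark the 3 cells with over 50% Gm10800. Oocyte markers do not overlap between the stages, with at most 0.0125% in primary and at least 0.0153% in primordial cells.

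Across the plate more genes were called higher than lower in primary cells, but this balance depended on *Gm10800*. Of 3256 compared genes, 31.2% (1017) were called higher and 16.2% (528) lower, and the median log2 ratio of all compared genes was 0.46. With *Gm10800* out of the totals 20.4% (670) were higher and 22.2% (729) lower of 3278, with a median of 0.06, so that 47.9% instead of 65.8% of the calls were higher. Without the 3 Gm10800-rich cells 19.2% were higher and 20.7% lower of 3041. These shares are the background against which the counts of each gene list are to be read. Leaving out 1 cell at a time gave 816 to 1058 higher and 476 to 568 lower genes.

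**Figure D2:**
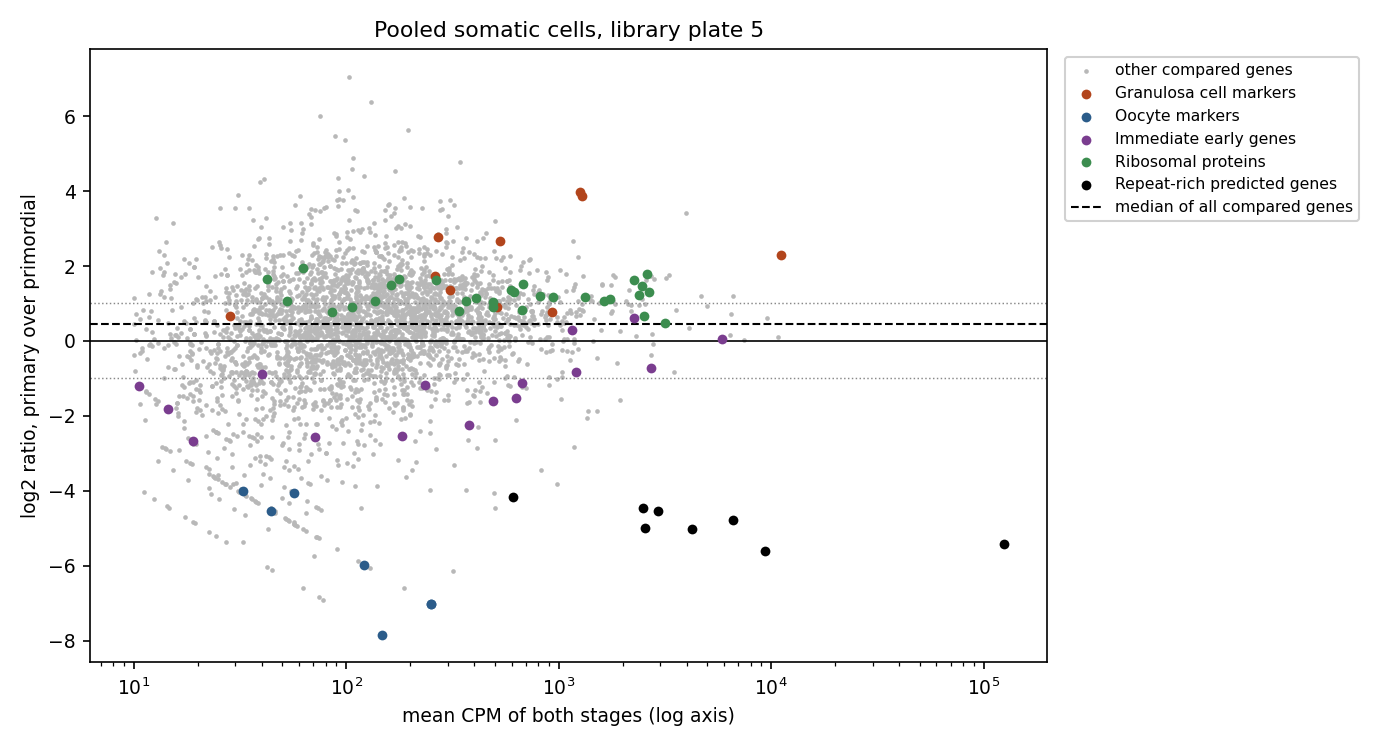
Log2 ratio of pooled CPM, primary over primordial, against the mean CPM of both stages (log axis) for 3256 compared genes, with members of 5 lists coloured. Dotted lines mark a ratio of 1 in size and the dashed line the median of 0.46. The 7 oocyte markers and 8 repeat-rich predicted genes lie at -4.00 or lower, and no granulosa marker lies below 0.

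Genes of the granulosa hormones were higher in primary cells. *Inha* (chr1:75507077-75510366, plus strand of GRCm38) reached 18517 CPM (95% interval 18217 to 18822) in primary and 3787 CPM (3681 to 3895) in primordial cells. The lowest, median and highest cell had 0, 15879 and 29347 CPM in primary cells and 0, 3162 and 16531 CPM in primordial cells. The 16 primary cells with reads had 10002 CPM or more, a level passed by 2 of 21 primordial cells, so that the groups overlapped only at the top of the primordial range and in the cells at 0. The log2 ratio was 2.29 (4.89-fold), 1.90 with *Gm10800* out of the totals, 1.79 without the Gm10800-rich cells and 1.64 without these and the stroma-rich cells.

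*Amh* (chr10:80805243-80807648, plus strand) differed more. It had 2399 CPM in primary and 163.7 CPM in primordial cells, with reads in 16 of 19 primary cells (84.2%) and 12 of 21 primordial cells (57.1%). The cells ran from 0 over a median of 1320 to 8520 CPM in primary and from 0 over 83.2 to 1571 CPM in primordial cells, so that the medians were far apart while the ranges overlapped. The log2 ratio was 3.87 (14.7-fold, interval 3.67 to 4.09), and 3.48, 3.34 and 3.21 under the 3 settings named for *Inha*. *Inhbb*, the beta B subunit of inhibin and activin, was at 470 CPM in primary and 68.6 CPM in primordial cells, a log2 ratio of 2.77 that became 3.88 without primordial cell 22.

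*Foxl2* (chr9:98955288-98958543, plus strand) was nearer to equal. It was at 443 CPM in primary and 173.9 CPM in primordial cells, with a lowest, median and highest cell of 0, 237.02 and 1670 CPM in primary and 0, 165.4 and 969 CPM in primordial cells, ranges that overlap over most of their length. It had reads in 18 of 19 primary and 14 of 21 primordial cells. Its log2 ratio of 1.35 was past 1 with all counts and all cells. It was 0.95 with *Gm10800* out of the totals, 0.82 without the Gm10800-rich cells, and 0.86 without primary cell 54.

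Of 20 granulosa markers listed, 12 have values on the plate and 10 were compared. In primary cells 7 were called higher and 0 lower, with a median log2 ratio of 2.02, and 6 were higher with a median of 1.62 when *Gm10800* was out of the totals. The other 3 compared markers were at 0.89 (*Wnt6*), 0.76 (*Esr2*, estrogen receptor beta) and 0.67 (*Aard*, with reads in 8 cells, and -0.69 without primary cell 50). *Fshr*, the receptor of follicle-stimulating hormone, had reads in 5 primary and 0 primordial cells, too few cells to be compared. It was at 164.2 CPM in primary cells, at least 70.2-fold higher than the floor for primordial cells, and at least 53.4-fold with *Gm10800* out of the totals. Among 19 ligands and binding proteins of the TGF-beta family 7 were compared, of which 4 were called higher (among them *Amh*, *Inhbb* and *Inha*) and 3 lower (*Bmp4*, *Bmp2* and *Tgfb3*, at log2 ratios of -2.12, -3.10 and -3.22). Without the stroma-rich cells 4 were compared, all of them called higher, and the 3 lower genes had reads in too few of the remaining cells. Single cells decided the sizes of these 3 as well. Without primary cell 53 the ratios of *Bmp4*, *Bmp2* and *Tgfb3* were -4.21, -4.30 and -6.51, while *Bmp4* was at -1.47 without primordial cell 31, and *Bmp2* and *Tgfb3* were at -2.46 and -1.92 without primordial cell 28.

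**Figure D3:**
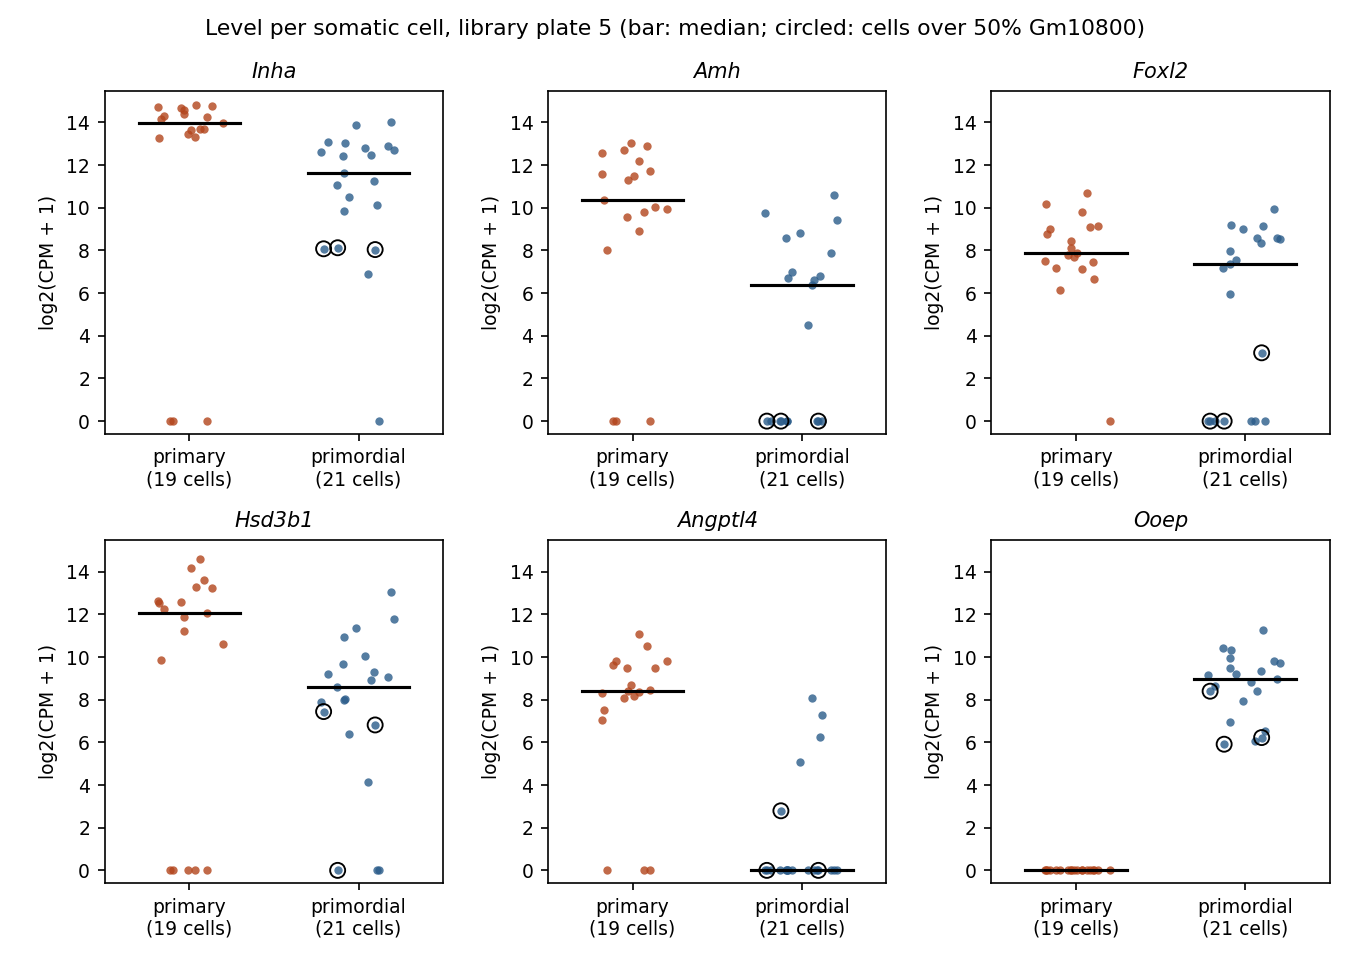
Level of 6 genes in each cell as log2(CPM + 1), primary cells left and primordial cells right. Bars are medians and circles mark the 3 Gm10800-rich cells. The groups overlap for all but Ooep, which is at 0 in 19 primary cells and at 59.3 CPM or more in 21 primordial cells.

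Steroid synthesis genes were also higher in primary cells. *Hsd3b1* (chr3:98852194-98859794, minus strand), which turns pregnenolone into progesterone, was at 7286 CPM in primary and 679 CPM in primordial cells, a 10.7-fold difference (log2 ratio 3.42, and 3.03 with *Gm10800* out of the totals). It ran from 0 over 4349 to 24972 CPM in 19 primary cells and from 0 over 385 to 8360 CPM in 21 primordial cells, and the groups overlapped. It had reads in fewer primary than primordial cells (14 and 18), so the pooled difference lies in the level of the cells that have it. *Hsd17b1*, which reduces estrone to estradiol, was at 913 CPM in primary and 142.7 CPM in primordial cells (log2 ratio 2.68, and 3.32 without primordial cell 27). *Scarb1*, the receptor that takes up cholesterol from high-density lipoprotein, was at 1182 CPM in primary and 266 CPM in primordial cells (2.15). *Star*, which carries cholesterol into mitochondria, was at 164.2 and 60.8 CPM in the same order, in 5 and 4 cells, and its ratio of 1.43 became 0.63 without primary cell 39, 0.95 without primary cell 43 and 2.29 without primordial cell 36. In all, 4 of 6 compared genes of the list were called higher and 0 lower, at a median of 1.79, and of 1.40 with *Gm10800* out of the totals.

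*Angptl4*, a secreted inhibitor of lipoprotein lipase, had the highest log2 ratio of those ranked (4.77, 27.3-fold), with 659 CPM in primary and 24.2 CPM in primordial cells. It had reads in 16 of 19 primary and 5 of 21 primordial cells, with medians of 335 CPM in primary and 0 CPM in primordial cells, and the ranges overlapped up to 266 CPM. The ratio was 4.05 without primary cell 50 and 5.75 without primordial cell 36. *Apoa1*, the main protein of high-density lipoprotein, was at 232.2 CPM in 11 primary cells and 10.9 CPM in 2 primordial cells (4.41, and 5.83 and 5.02 without primordial cells 22 and 33). *Slc16a1*, a monocarboxylate transporter, was at 206.6 CPM in primary and 18.7 CPM in primordial cells (3.46, and 5.17 without primordial cell 36). In the cholesterol pathway 2 of 5 compared genes were called higher, and 1 without primary cell 39.

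Other genes among the 15 highest had ratios of 3.19 to 3.76. *Mrpl36*, a protein of the mitochondrial ribosome, was at 290.0 CPM in 16 primary cells and 23.4 CPM in 10 primordial cells (3.63, and 2.67 without primary cell 50), and *Ddah1*, which breaks down methylated arginines, at 311.8 and 26.5 CPM (3.56). *Zfp385b*, a zinc finger protein, was at 3.76, and at 4.38 without primordial cell 26. *Sox18*, a transcription factor better known from endothelium, was at 3.57, with reads in 10 primary and 4 primordial cells, and at 5.24 without primordial cell 24. *Bex2* (3.50, and 2.74 without primary cell 50), *Plekhd1* (3.49, and 4.15 and 4.24 without primordial cells 21 and 24), *Apoa4*, an apolipoprotein of fat transport (3.35, and 4.24 without primordial cell 22), and *Cpxm1* (3.19, and 1.38 without primary cell 50) were also among them. Primary cell 50 had more counts than any other primary cell and so carried more weight in the sums.

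Among transcription factors the picture was mixed. Of 12 compared granulosa transcription factors 3 were called higher and 2 lower, with a median of 0.37 close to that of all genes, and with *Gm10800* out of the totals 1 was higher and 2 lower. *Nr5a1*, the steroidogenic factor, was at 565 CPM in primary and 404 CPM in primordial cells (0.48, and 0.09 with *Gm10800* out). *Wt1*, a factor of pre-granulosa cells, was at 906 CPM in primary and 964 CPM in primordial cells (-0.09), and *Gata6* at 221.96 and 234.7 CPM (-0.08). The 2 lower ones were *Emx2*, at 10.3 CPM in primary and 55.4 CPM in primordial cells (-2.43), and *Irx3*, at 30.8 and 96.7 CPM (-1.65, and -2.24 without primary cell 52), both transcription factors of the developing gonad.

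Signalling genes outside the TGF-beta ligands were called in both directions. Of 6 compared receptors and Smads of the TGF-beta family 1 was higher and 2 were lower, at a median of 0.22. The higher one was *Tgfbr1*, the type I receptor of TGF-beta, at 699 CPM in primary and 176.2 CPM in primordial cells (1.99), but in 8 primary and 17 primordial cells, with a median of 0 CPM in primary and 106.4 CPM in primordial cells. Of 9 compared genes of the Kit ligand, insulin, IGF and mTOR list 3 were higher and 3 lower, at a median of 0.44, and leaving out 1 cell gave 2 to 4 higher and 2 to 3 lower. *Igf1*, a growth factor that supports granulosa cells, was at 1033 CPM in primary and 280 CPM in primordial cells (1.88, and 1.49 with *Gm10800* out). Its medians per cell were 818 CPM in primary and 188.6 CPM in primordial cells, with overlapping ranges. Among the lower ones were the insulin receptor substrates *Irs1*, at 260.9 CPM in primary and 609 CPM in primordial cells (-1.22, and -0.96 and -0.85 without primordial cells 24 and 28), and *Irs2*, at 75.7 and 194.9 CPM (-1.36). The hedgehog ligands, which act on the theca around growing follicles, were both called higher. *Ihh* was at 228.4 CPM in 7 primary cells and 28.1 CPM in 3 primordial cells (3.02, and 6.10 without primordial cell 20), and *Dhh* at 177.2 CPM in 9 primary cells and 23.7 CPM in 4 primordial cells (2.90, and 3.59 and 3.87 without primordial cells 27 and 34). Of 5 compared Notch genes 0 were called in either direction, of 4 WNT genes 1 was higher and 2 lower, and of 7 Hippo genes 1 was higher and 2 lower. Leaving out 1 cell moved the Notch and Hippo counts by at most 2. The higher WNT gene, *Fzd6* (2.19), was at 0.29 without primary cell 37. *Fzd1*, a lower one (-1.28), was at -0.98 without primordial cell 20, 24 or 37. Both then had reads in too few cells to be compared. Without the Gm10800-rich cells 2 WNT genes were compared, 0 higher and 1 lower. The higher Hippo gene was *Mob1a*, a coactivator of the LATS kinases, at 921 CPM in primary and 256 CPM in primordial cells (1.85).

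Genes of adhesion and the cytoskeleton differed by gene. *Cdh2*, the N-cadherin of granulosa cell contacts, was at 765 CPM in primary and 113.1 CPM in primordial cells (2.76, and 2.36 with *Gm10800* out), in 12 cells of each stage. *Lamb2*, a laminin chain of basement membranes, was at 518 CPM in primary and 166.9 CPM in primordial cells (1.64). The tubulin gene *Tuba1a* was at 237.2 CPM in 7 primary cells and 1018 CPM in 18 primordial cells (-2.10), and *Tubb2a*, another, at 100.2 and 305 CPM (-1.60). Of 6 compared cytoskeleton genes 0 were called higher and 3 lower, at a median of -0.96, and 4 lower with *Gm10800* out of the totals, while leaving out 1 cell gave 2 to 4 lower. *Gja4*, the gap junction protein that oocytes use toward granulosa cells, had no count in primary cells and 115.4 CPM in 12 primordial cells, at least 29.98-fold lower in primary cells.

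The cell cycle lists differed from one another, and most of their members have no values on the plate. Values exist for 6 of 30 S phase genes, 7 of 30 genes of mitosis and 6 of 16 D cyclins and CDK inhibitors. The shares below cover only these genes. Genes of S phase took a median of 0.203% of the counts in primary and 0.0641% in primordial cells. Genes of mitosis took a median of 0.0575% in primary cells, 6 of which had none, and 0.154% in primordial cells, all of which had some. D cyclins and CDK inhibitors took 0.390% in primary and 0.215% in primordial cells, with 1 higher and 1 lower of 3 compared genes. The lower one, *Ccnd1*, had reads in 4 primary and 4 primordial cells. Its ratio of -1.91 became 1.18 without primordial cell 29, with reads then in too few cells to be compared. Without the Gm10800-rich cells 2 genes of this list were compared, 1 higher and 0 lower. The ranges of the stages overlapped in all 3 lists. *Cdk4*, the kinase that drives entry into S phase, had reads in every primary cell, with 577, 3218 and 6343 CPM (lowest, median and highest) in primary and 0, 812 and 2865 CPM in primordial cells. Its pooled level was 2804 CPM in primary and 863 CPM in primordial cells (1.70, and 1.31 with *Gm10800* out), and the median primary cell lay above every primordial cell. *Skp2*, part of the ligase that degrades the inhibitor p27, was at 518 CPM in 13 primary cells and 45.2 CPM in 5 primordial cells (3.52, and 5.37 without primordial cell 20). Of 5 compared S phase genes 2 were called higher (*Prim1*, a primase subunit, at 2.26 and *Mcm2*, a subunit of the replicative helicase, at 1.31) and with *Gm10800* out of the totals 1. Of 7 compared genes of mitosis 2 were called higher and 0 lower with all counts, and 1 higher and 1 lower with *Gm10800* out. The lower one was *Ube2c*, which works in the anaphase-promoting complex. It had reads in 5 primary and 21 primordial cells, at 232.2 CPM in primary and 420.2 CPM in primordial cells (-0.86, and -1.25 with *Gm10800* out). Both counts are small, and leaving out primary cell 52 gave 0 higher and 1 lower.

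Replication-dependent histones stood higher, with 6 of 7 compared genes called higher and 0 lower, at a median of 2.56, and of 2.17 with *Gm10800* out. *Hist2h3c2* was at 598 CPM in primary and 48.02 CPM in primordial cells (3.64) and *Hist1h2ap* at 313 and 37.2 CPM (3.07). They had reads in 8 and 9 primary cells and in 6 and 10 primordial cells, with a median of 0 CPM in both stages, so a few cells carried the difference. Histone genes have near-identical copies, among which the counting could split reads. In the 67 histone genes together the share of counts had a median of 0.0501% in primary and 0.0556% in primordial cells and a highest cell of 0.70% in primary and 0.125% in primordial cells.

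Ribosomal protein genes, which build the ribosome, were higher in primary cells as a list when all counts were in the totals. The list holds only the 32 that have values on the plate. Of 30 compared genes 23 were called higher and 0 lower, at a median of 1.17. With *Gm10800* out of the totals 9 were higher at a median of 0.77, without the Gm10800-rich cells 9 at 0.70, and leaving out 1 cell gave 13 to 24, with 13 without primary cell 50 and 14 without primordial cell 40. *Rpl3* was at 4039 CPM in primary and 1160 CPM in primordial cells (1.80), with 1066, 3128 and 8675 CPM as lowest, median and highest in primary and 70.4, 1451 and 3413 CPM in primordial cells. *Rpl6* was at 3409 and 1112 CPM in the same order (1.62). Both genes had reads in all 40 cells, and their ranges overlapped. The lowest ratio was that of *Rpl7*, 0.49, and 0.09 with *Gm10800* out.

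Nuclear genes of the respiratory chain behaved alike, with 18 of 31 compared called higher and 1 lower at a median of 1.11, and 10 of 32 higher at 0.70 with *Gm10800* out. *Ndufs8*, a subunit of complex I, was at 561 CPM in primary and 125.5 CPM in primordial cells (2.16, and 1.77 with *Gm10800* out). The gene called lower was *Cox4i2*, an alternative subunit of complex IV, with no count in primary cells and 27.3 CPM in 10 primordial cells, at least 7.09-fold lower in primary cells (a bound of -2.83 on the log2 scale, and of -2.22 without primordial cell 23). The 10 compared mitochondrially encoded genes had a median of 0.37 and, with *Gm10800* out, of -0.03, with 1 called higher and 1 lower, counts that a single cell moved by 1. The higher one was *mt-Co2* at 1.5, and 0.91 without primary cell 50.

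Other housekeeping groups lay between. Of 11 compared splicing and RNA-binding genes 6 were called higher and 0 lower (median 1.04), and with *Gm10800* out 4. *Hnrnpa2b1*, an RNA-binding protein of the nucleus, was at 3898 CPM in primary and 1271 CPM in primordial cells (1.62). Of 12 proteasome genes 4 were higher (median 0.89), 7 without primordial cell 28, and with *Gm10800* out 1, *Psmb1*, a subunit of the catalytic core, at 792 CPM in primary and 292 CPM in primordial cells (1.44, and 1.04 with *Gm10800* out). Of 6 redox genes 4 were higher, 2 without either primordial cell 39 or 40, and with *Gm10800* out 2, thioredoxin *Txn1* (1.60 with all counts), an electron donor, and *Cat* (1.42), catalase. *Pgam1*, a glycolytic enzyme, was at 1357 CPM in primary and 419 CPM in primordial cells (1.70).

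**Figure D4:**
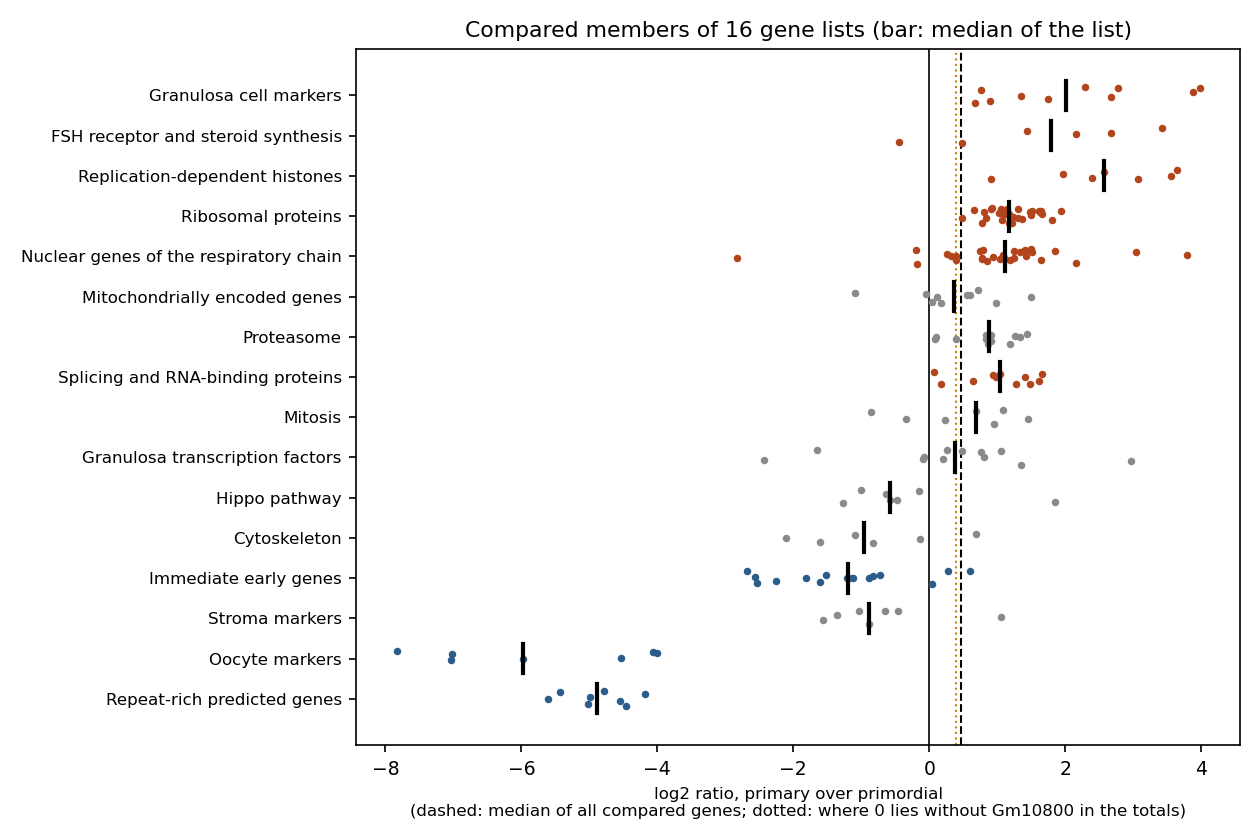
Log2 ratio, primary over primordial, of the compared members of 16 lists (points) with the median of each list (bar). Points are orange where the median is at least 1, blue where it is at most -1 and grey between. The dashed line is the median of all compared genes (0.46) and the dotted line shows where 0 lies with Gm10800 out of the totals. Ribosomal proteins form a narrow group right of both lines, while immediate early genes, oocyte markers and repeat-rich genes lie mostly left of 0.

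Transcripts of oocyte genes were far lower in primary than in primordial cells. Oocyte markers took 0, 0 and 0.0125% of the counts (lowest, median and highest) in primary cells, 13 of which had none, and 0.0153, 0.235 and 0.535% in primordial cells, all of which had some. The groups did not overlap. Of 32 markers 11 have values on the plate and 7 were compared, and all 7 were called lower in primary cells, at a median of -5.98. The authors had removed somatic cells with high oocyte scores before deposit, so these are the cells that remained. The part of oocyte RNA in the counts of these cells was not tested.

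*Ooep* (chr9:78376109-78378725, minus strand), a protein of the subcortical complex of the oocyte, had no count in 19 primary cells (upper bound 4.73 CPM) and 502 CPM in primordial cells, with reads in 21 of 21. The primordial cells ran from 59.3 over a median of 503 to 2453 CPM, so that every one of them had it. It was at least 130-fold lower in primary cells. In the oocytes of the plate *Ooep* was at 1096 CPM (1 primordial oocyte), 2575 CPM (4 primary oocytes) and 2275 CPM (5 secondary oocytes).

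*Oas1d*, an oocyte member of the oligoadenylate synthetase family, had no count in primary cells and 500 CPM in 18 primordial cells, at least 130-fold lower in primary cells. *Sohlh1*, a transcription factor of early oocytes, had none in primary cells and 242.5 CPM in 18 primordial cells, a bound of -5.98 on the log2 scale, and the RNA-binding protein *Dazl* none and 88.9 CPM in 10 cells, at least 23.1-fold lower. In oocytes of the plate the stages differed for *Sohlh1*, with 1785, 83.6 and 30.3 CPM from primordial over primary to secondary, and little for *Oas1d*, with 1777, 1770 and 1615 CPM. *Khdc1b* had 1 count in primary cells (number 46) and 376 in primordial cells, a log2 ratio of -7.84 with an interval of -13.14 to -5.35, and -6.15 as a bound without that primary cell. *Bmp15*, a ligand the oocyte sends to its granulosa cells, had 3 counts in primary cells and 61.6 CPM in 10 primordial cells (-4.00, interval -6.31 to -2.40, and -3.32 without primordial cell 30). *Npm2*, a histone chaperone of the egg, was at 6.41 CPM in 2 primary cells and 106.8 CPM in 14 primordial cells (-4.06, and -6.15 without primary cell 50). Over the same oocyte stages *Bmp15* rose, with 283, 6259 and 12690 CPM. So did *Npm2*, with 76.6, 1739 and 2105 CPM, and *Khdc1b*, with 1205, 1891 and 6942 CPM. *Dazl* was at 674, 892 and 704 CPM. The primordial value of each is that of 1 oocyte.

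Other genes known from germ cells were among the 15 lowest. *Gtsf1*, a factor of the piRNA pathway, had no count in primary cells and 226.9 CPM in 18 primordial cells, at least 58.9-fold lower, and *Sohlh2*, the partner of SOHLH1, none and 181.7 CPM in 11 cells, at least 47.2-fold lower (a bound of -5.56 on the log2 scale, and of -4.97 without primordial cell 20). *Tdrd1*, a Tudor domain protein of germ granules, and *Trim71*, an RNA-binding ligase, had 1 count each in primary cells (numbers 49 and 46) and 147.4 and 154.4 CPM in primordial cells. Their log2 ratios were -6.84 (interval -12.15 to -4.35) and -6.91 (-12.22 to -4.42), and -5.18 and -5.23 as bounds without those primary cells. *Ccdc181* had 2 counts in primary cell 55 and 138.003 CPM in 11 primordial cells (-5.75, interval -8.81 to -3.87, and -5.12 as a bound without that cell), and a transcript known only by a clone name had no count in primary cells and 374 CPM in 20 primordial cells, at least 97.1-fold lower in primary cells.

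The promoter of *Ooep* is shown for an element bound by the oocyte factor NOBOX, TAATTG, which stands here on the opposite strand as CAATTA, in capitals. It covers chr9:78378539-78378838 of RefSeq on GRCm38.p6 and is written along the minus strand. The element ends 53 bases before the gene start of the GRCm38 annotation, and the 3′ part of the stretch lies inside the gene.
Ooep: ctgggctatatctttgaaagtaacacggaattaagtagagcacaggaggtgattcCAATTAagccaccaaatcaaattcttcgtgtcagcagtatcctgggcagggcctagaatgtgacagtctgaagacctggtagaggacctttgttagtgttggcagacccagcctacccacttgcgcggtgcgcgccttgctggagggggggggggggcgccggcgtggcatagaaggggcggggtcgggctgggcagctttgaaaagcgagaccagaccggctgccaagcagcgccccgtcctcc
Of the 7 oocyte markers called lower 5 have a promoter entry (*Bmp15*, *Dazl*, *Sohlh1*, *Ooep* and *Khdc1b*), and 1 of these, *Ooep*, has the element on either strand, against 8.0% of 32851 promoters.

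Immediate early genes, which cells switch on within minutes of a stimulus such as dissociation, were lower in primary cells. Of 31 listed 16 were compared, of which 0 were called higher and 10 lower, at a median of -1.19. With *Gm10800* out of the totals 14 of 17 were lower at -1.60, and without the Gm10800-rich cells 12 of 15 at -1.63. Leaving out 1 cell gave 8 to 12 lower. The list took 0.124, 1.40 and 5.34% of the counts (lowest, median and highest) in primary cells and 0.119, 2.32 and 4.88% in primordial cells, and the groups overlapped. By the protocol notes, though not by the figure legend, primary follicles had been in Accutase for longer, and stage and handling cannot be told apart here.

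Within the list the genes differed in size, and not all had a ratio below 0. *Jun*, a subunit of the AP-1 factor, was at 5974 CPM in primary and 5815 CPM in primordial cells (0.04, and -0.35 with *Gm10800* out), and *Fosb*, its partner, at 2049 and 3402 CPM (-0.73, and -1.13 with *Gm10800* out). *Myc* and *Ier2* also lay above 0 with all counts, at 0.28 and 0.60. *Ier3*, a survival factor, was at 130.9 CPM in 8 primary cells and 622 CPM in 20 primordial cells (-2.25). *Zfp36*, which targets AU-rich messengers for decay, was at 241.2 CPM in 13 primary cells and 737 CPM in all 21 primordial cells (-1.61), with medians per cell of 198.7 CPM in primary and 571 CPM in primordial cells. *Rhob*, a small GTPase, was at 326 and 929 CPM in the same order (-1.51). *Atf3*, a stress factor, came from 1 primary cell (number 51) and 16 primordial cells, at 53.9 and 312 CPM (-2.53, and -6.26 as a bound without that primary cell).

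Some of the lowest genes rested on few cells. *Cxcl10*, a chemokine induced by interferon, had no count in primary cells and 258 CPM in 11 primordial cells, but 1 of these reached 5066 CPM, and the log2 ratio was -6.07 as a bound and -4.09 without it (primordial cell 35). *Ttn*, the giant protein of muscle sarcomeres, had 7 counts (8.98 CPM) in 3 primary cells and 630 CPM in 15 primordial cells (-6.13, and -7.30 without primary cell 44). *Cdk14*, a kinase of the cyclin Y complex, had 1 count in primary cells (number 45) and 123.97 CPM in 11 primordial cells (-6.59, interval -11.91 to -4.10, and -4.98 as a bound without that primary cell). Stroma markers gave 1 higher and 3 lower of 7 compared, at a median of -0.88, and these counts turned on the stroma-rich cells, with 6 of 6 lower without primary cell 38, 5 of 6 without primary cell 53 and 1 of 6 without primordial cell 28. Without all stroma-rich cells 3 were compared, of which 0 were higher and 3 lower, at a median of -4.78. *Col1a1*, a chain of type I collagen, was at 521 CPM in 2 primary cells and 1532 CPM in 12 primordial cells (-1.56), and the ratio was -3.94 without primary cell 38 and -0.54 without primordial cell 28.

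Primordial cells had reads of more genes. With every cell thinned to 12000 counts the lowest, median and highest were 900, 1347 and 1570 genes in primary cells and 727, 1617 and 2869 genes in primordial cells. The 3 Gm10800-rich cells pulled the lower end down, and without them primordial cells had 1174, 1648 and 2869 genes. The groups overlapped. Unthinned, the median was 1630 genes in primary and 2062 genes in primordial cells.

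Secondary somatic cells of the same plate (26 cells) place the main genes in order of stage. From primordial over primary to secondary cells the pooled level of *Inha* was 3787, 18517 and 16348 CPM, and that of *Amh* 163.7, 2399 and 1634 CPM. *Hsd3b1* had 679, 7286 and 8033 CPM, so that for these genes the primary and secondary levels lay closer together than either lay to the primordial level. *Gm10800* took another order, with levels of 243169, 5654 and 36197 CPM, and this primordial level includes the Gm10800-rich cells. Its medians per cell were 45137, 3588 and 23400 CPM in the same order. The highest secondary cell had 187069 CPM, against at most 107145 CPM in primordial cells that are not Gm10800-rich. *Ooep* had 502, 0 and 54.8 CPM and reads in 21 of 21, 0 of 19 and 15 of 26 cells.

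The same stages were also present on plate 1, with 5 primary and 19 primordial somatic cells. Of 2035 genes compared there 21.8% were called higher and 31.4% lower in primary cells. Many genes of plate 5 are not listed on plate 1. Of the 1017 genes called higher on plate 5, 18.4% could be compared on plate 1, and of these 31.02% (58 genes) were higher and 16.6% (31 genes) lower, at a median of 0.24. Of the 528 called lower, 22.2% could be compared, and of these 70.1% (82 genes) were lower and 4.27% (5 genes) higher, at a median of -1.84. Over all 649 genes compared on both plates 16.6% were higher and 39.3% lower on plate 1, at a median of -0.55.

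By gene, *Inha* was at 9173 CPM in primary and 2309 CPM in primordial cells of plate 1 (1.99), and *Hsd17b1* at 1008 and 62.2 CPM (4.02). *Amh* had reads in 5 of 5 primary cells at 312 CPM and in 0 of 19 primordial cells. The granulosa markers as a list had 4 of 6 higher and 0 lower there, and immediate early genes 5 of 8 lower and 0 higher at -1.59. *Gm10800* was lower on plate 1 too (-4.12), and *Sohlh1* had no count in primary cells and 183.5 CPM in 8 primordial cells. Other results of plate 5 did not hold on plate 1. *Foxl2* was at 182.7 CPM in primary and 297 CPM in primordial cells (-0.70), *Ooep* had reads in 2 of 5 primary and 9 of 19 primordial cells (-0.50), and of 8 ribosomal protein genes 0 were higher and 3 lower, at a median of -0.90.

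**Figure D5:**
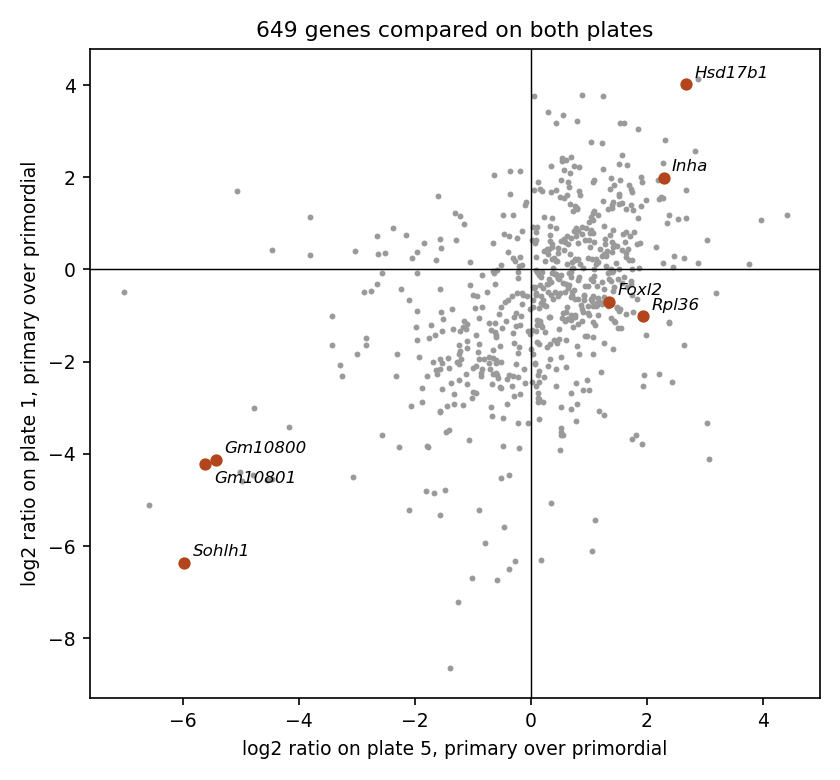
Log2 ratio, primary over primordial, on plate 5 (horizontal) and plate 1 (vertical) for 649 genes compared on both plates, with 7 genes named. Inha and Hsd17b1 lie right of and above 0, Gm10800, Gm10801 and Sohlh1 left of and below 0, and Foxl2 and Rpl36 right of and below 0.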

How the data were processed

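RNA of single cells was measured by SMART-Seq2. The deposited values are estimated counts per gene and cell, which the authors made from reads demultiplexed and aligned to GRCm38 with the TAG-public scripts on Terra; the aligner and counter are not given in the sources used here. Of the counts above 0, 14.0% were not whole (tolerance 1e-06), and these were rounded for intervals. The authors removed cells with under 500 genes and somatic cells with a high oocyte module score, and their notes name Seurat 4, GRCm38 and mm10. The deposited metadata hold read and gene counts per cell, and fractions of reads per class that the authors' alignment metrics gave, shown here as percent. Stage was taken from the titles and plate from the metadata.

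Genes without values on the plate were left out, as were 27 of 25149 entries whose names had become dates (0.0566% of the plate's counts). Counts were pooled by stage, with exact Poisson and binomial-split intervals (Python 3.11.15, numpy 2.4.6, pandas 2.3.3, scipy 1.17.1, matplotlib 3.10.9). TMM factors came from edgeR 4.0.16 in R 4.3.3 and served only as an alternative scaling. Genes named are *Amh*, *Inha*, *Foxl2*, *Gm10800*, members of the gene lists, and the 15 highest and 15 lowest ratios among compared genes with at least 50 CPM and reads in at least 50% of cells of the higher stage. Some genes this rule names are not reported here. The members and lists were chosen with earlier results of these data known. No doublet caller was run, since cells had been picked one by one. Sequences are from RefSeq (GRCm38.p6) and the GRCm38 annotation. The scripts were tested on simulated data.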

Additional observations from a re-analysis of the deposited data

How the results depend on the processing

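Most of the directions examined held, while the counts moved with the scaling. Against 1017 genes called higher in primary cells, 670 were called with *Gm10800* out of the totals, 566 with all repeat-rich predicted genes out, 1697 with only genes listed on every plate in the totals, 584 with every cell thinned to 12000 counts, 571 with TMM and 572 with median-of-ratios factors. Leaving out cells gave 585 without the Gm10800-rich cells, 569 without these and the stroma-rich ones, and 524 without every cell with reads of 3 or more stroma markers. The settings that leave out Gm10800-rich or stroma-rich cells were chosen after seeing the data. Other thresholds gave 2168 with no cell minimum and a mean of at least 1 CPM, and 567 at a log2 ratio of 1.5. Against 528 called lower, 816 were called with the repeat-rich genes out, 795 with either set of factors, 315 without cells with reads of 3 or more oocyte markers (19 primary and 1 primordial cell left), 1754 with no cell minimum, and 314 at a mean of at least 50 CPM. Leaving out 1 cell gave 816 to 1058 higher and 476 to 568 lower. Plate 1 in place of plate 5 gave 444 higher. Of 28 list medians and 32 ratios examined, none that was past 1 in size changed direction under an alternative on plate 5. Plate 1 turned the medians of ribosomal proteins (-0.90), the respiratory chain (-0.0705), redox genes (-0.0305) and splicing genes (-0.21). It also turned the ratios of *Foxl2* (-0.70), *Cpxm1* (-0.51), *Khdc1b* (4.66), *Ccdc181* (0.41) and *Sohlh2* (1.77). For replication-dependent histones only 1 gene, *Hist1h2ap*, was compared on plate 1, against 7 on plate 5, and it turned as well (-4.10). The cause of these changes was not tested. The 32 ratios do not cover every called gene. On plate 5 some other list genes past 1 in size changed direction when 1 cell was left out. *Ccnd1* went from -1.91 to 1.18 without primordial cell 29 and *Tcf21* from 1.06 to -0.63 without primary cell 38. *Postn* went from -1.03 to 0.12 without primordial cell 37. These ratios are given even where too few cells with reads were left to compare the gene.

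No paired analysis was possible because each stage is 1 sample and no test was run, and the replicate numbers do not pair cells. With no animal named and 1 plate, differences between stages cannot be told apart from differences between animals, wells or handling. Low genes rest on few reads: a stage without counts allows up to 4.73 CPM in primary cells.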

Other observations

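Chaperones of the cytosol and the endoplasmic reticulum did not shift together. Of 8 compared heat shock genes 2 were called higher and 1 lower in primary cells, at a median log2 ratio of 0.49, and 1 higher and 1 lower with *Gm10800* out of the totals. Leaving out primary cell 50 gave 1 higher and 0 lower, leaving out primordial cell 26 0 lower, and leaving out primordial cell 36 4 higher. *Hspa9*, the mitochondrial chaperone mortalin, was at 1991 CPM in primary and 601 CPM in primordial cells (1.73, and 1.34 with *Gm10800* out), with medians per cell of 1881 CPM in primary and 417 CPM in primordial cells. *Hspa1a*, the inducible chaperone of the cytosol, was at 1155 and 612 CPM in the same order (0.92), with nearly equal medians of 325 CPM in primary and 326 CPM in primordial cells. In the endoplasmic reticulum *Hspa5* was at 6774 CPM in primary and 6046 CPM in primordial cells (0.16, and -0.23 with *Gm10800* out). *Herpud1*, which the unfolded protein response induces, was at 141.1 CPM in 10 primary cells and 358 CPM in 18 primordial cells (-1.34).

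Genes of antigen presentation and interferon-induced membrane proteins gave 3 higher and 0 lower of 8 compared (median 0.69), and 2 higher with *Gm10800* out of the totals (median 0.30). *Ifitm2*, a membrane protein that restricts virus entry, was at 432 CPM in primary and 155.2 CPM in primordial cells (1.48), with reads in 19 of 19 and 18 of 21 cells. *H2-K1*, a class I heavy chain, was at 926 CPM in primary and 1327 CPM in primordial cells (-0.52), and *B2m*, its light chain, at 866 and 624 CPM (0.47, and 0.08 with *Gm10800* out).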
